A study of Cricetulus griseus with 3 samples.

Results

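The genes described here are the cytokines, the chemokines and their receptors, the tumour necrosis factor (TNF) family and the Toll-like receptors of a mouse cDNA array. They were chosen by name, as every spot whose annotation gives a single symbol that begins as an interleukin or interleukin receptor (Il with a number), a chemokine or chemokine receptor (Ccl, Ccr, Cxcl, Cxcr, Cx3c), a TNF ligand, receptor or induced protein (Tnf), a colony stimulating factor or its receptor (Csf with a number) or a Toll-like receptor (Tlr). The rule found 107 of the 17664 spots on the array and 88 of the 8146 genes with a single name. Of these genes, 72 had 1 spot and 16 had several.

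The array compared the extremes of γ-secretase activity in Chinese hamster ovary (CHO) cells, an established line. S-1 cells stably carry NCT-GST, PS1, Aph1-a2-HA and Flag-Pen2, the subunits of γ-secretase, were derived through the γ-30 CHO line, and were grown in G418, puromycin, zeocin, hygromycin and blasticidin. They received 0.05% DMSO for 24 h. The study also marks APP, a substrate of γ-secretase, as overexpressed in these cells. Untransfected parental CHO cells, without these selection drugs, received the γ-secretase inhibitor DAPT at 10 µM in the same 0.05% DMSO for 24 h and are called DAPT-treated CHO cells. Medium, serum and antibiotics were shared. The S-1 side is 1 stable line, and the line, its constructs, the drugs and the inhibitor all differ between the sides of every array, so that their parts in a ratio cannot be told apart. There were 3 arrays from 3 independent experiments, and each array carried 1 culture of each side, with S-1 RNA in Cy3 on arrays 1 and 2 and in Cy5 on array 3. Every value below is a log2 ratio with S-1 on top and DAPT-treated CHO below, so that a positive value means more RNA signal in S-1 cells, and n = 3 arrays throughout.

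Cytokines are secreted proteins with which cells, above all those of the immune system, signal to each other. Interleukins and colony stimulating factors act on receptor chains that mostly pass the signal on through JAK kinases and STAT transcription factors, whereas IL-1, TNF and Toll-like receptors act through adaptors such as MyD88 and TRAF proteins on NF-κB. Chemokines bind receptors with 7 membrane passes and direct the movement of cells. Some proteins of these families, among them Cx3cl1, Il1r1, Il6ra and Tnfrsf1a, are cut in the membrane by γ-secretase after their outer part is shed. A cut protein is not measured by an RNA array, which reports transcript only. CHO cells are ovary-derived and not blood cells. In such a bulk measurement, fewer cells that express a gene and less RNA of it per cell cannot be told apart.

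The clones of the array come from collections that lie at fixed positions of its 32 print blocks and are called here by the letters H, P and N that the study's clone lists use. A further 480 spots lie at positions where those lists name no clone and are called unlisted. The collections matter for every value below, since their ratios were not alike. The median log2 ratio was 0.00 over 15360 H spots, 0.03 over 960 P spots and 1.56 over 480 unlisted spots. Of the 107 member spots, 40 were H, 53 P and 14 unlisted. The direction of the ratios was checked on transfected subunits. Psenen, the gene of Pen2, had log2 ratios of 2.84, 3.11 and 3.33 on arrays 1, 2 and 3, and Aph1a had 1.85, 2.17 and 2.04. The ratios of the 107 member spots correlated across arrays at a Pearson's r of 0.991 (1 and 2), 0.977 (1 and 3) and 0.975 (2 and 3), given as a description, since spots of an array share its RNA. The deposited values hold ratios and no intensities, so that the signal behind a spot is unknown, no level can be given for a gene, and a gene not transcribed on either side cannot be told from an equally transcribed one.

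With limma and an adjusted p under 0.005 over all 16928 tested spots, 27 of the 107 member spots were higher in S-1 cells (25.2%), 10 were lower (9.35%) and 70 did not pass. Over all tested spots, 9.68% were higher and 8.52% lower, or 18.2% in either direction. These shares depended on the collection. Among the H spots, 2 of 40 members were higher (5.0%, against 6.76% of all H spots) and 5 were lower (12.5%, against 8.52%), where 15.3% of all H spots passed in either direction. Among the P spots, 14 of 53 members were higher (26.4%, against 19.3% of all P spots) and 5 were lower (9.43%, against 12.8%), where 32.1% of all P spots passed in either direction. Among the unlisted spots, 11 of 14 members were higher (78.6%, against 78.8% of all unlisted spots) and 0 were lower (against 0.833%), where 79.6% of all unlisted spots passed in either direction. The share of higher members was thus near the background of the collection for H and unlisted spots and above it for P spots. The median log2 ratio of the members was −0.05 on H, 0.16 on P and 2.28 on unlisted spots. For all spots of the same collections it was 0.00, 0.03 and 1.56.

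**Figure D1:**
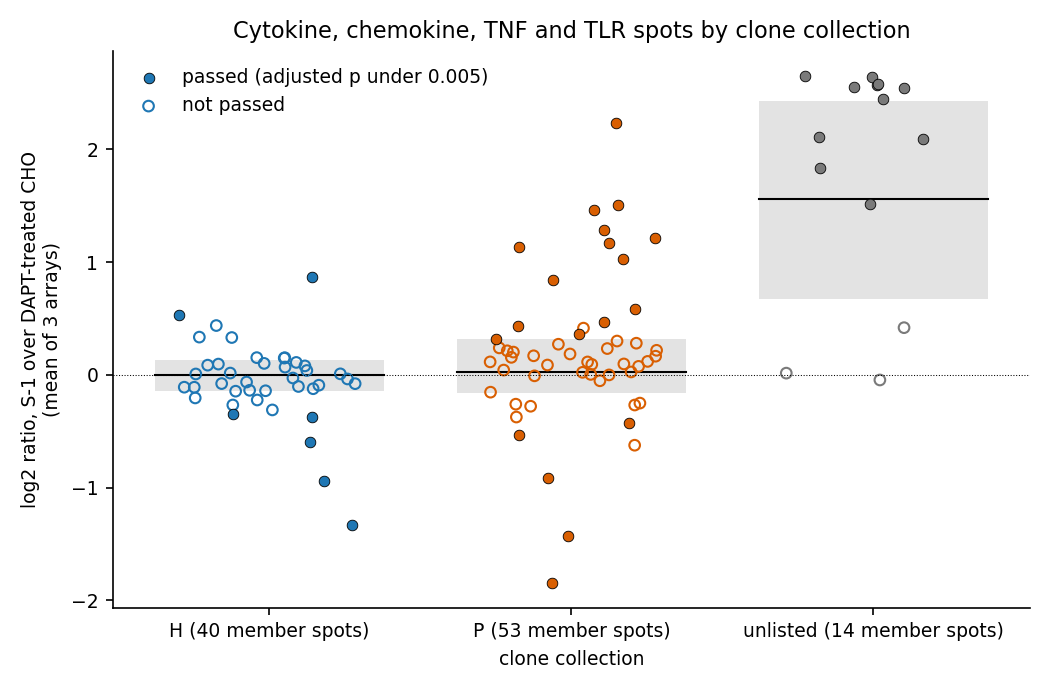
Mean log2 ratio (S-1 over DAPT-treated CHO, 3 arrays) of each of the 107 member spots, by clone collection, with filled points for spots past an adjusted p of 0.005 and open points for the others. Black lines and grey boxes give the median and the middle 50% of all spots of the collection, which lie near 0 for H and P spots and at a median of 1.56 for unlisted spots, where 11 of 14 members passed.

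The sign of the ratio was the same on all 3 arrays for 89 of 107 member spots (83.2%, against 67.6% of all tested spots). It was also the same for all 37 that passed, which the threshold nearly requires with 3 arrays. When the spots of a gene were averaged, 27 of 88 genes were higher (30.7%, against 12.4% of all genes) and 5 were lower (5.68%, against 10.3%), where 22.6% of all genes passed in either direction. For the 72 member genes with 1 spot, the gene value is that spot, tested among 8146 genes in place of 16928 spots. With the unlisted spots left out, 13 of 75 member genes were higher (17.3%, against 9.26% of 7971 genes) and 4 were lower (5.33%, against 10.6%). With H clones alone, 2 of 33 member genes were higher (6.06%, against 8% of 7489 genes) and 3 were lower (9.09%, against 10.7%). The shares before these were not matched for collection. P spots made up 53 of 107 member spots, against 960 of 16928 tested spots. With all spots kept, the 5 lower genes were Cxcl12, Csf1, Il18, Ccl25 and Il15. Of the 27 calls of higher member spots, 11 came from unlisted spots. Without array 2, 8 higher and 1 lower member spots passed, and without array 1, 21 and 5 did. Calls over all tested spots fell as well, from 1638 higher and 1442 lower. They were 263 and 100 without array 2 and 776 and 575 without array 1. With the control spots kept in the test, 20 higher and 4 lower member spots passed, with 679 higher and 507 lower over all spots. The 13 lost calls were those of Ccl9, Ccl25, Ccr2, Cxcr4, Il1a, Il1rn, Il10ra and Tnfrsf19, the H clone of Csf1 and both calls each of Il18 and Il4, at adjusted p of 0.00576 to 0.0157.

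The 16 genes with several spots allow clones to be set against each other. In 4 genes every clone passed in the same direction, in 4 genes only some clones passed, in Il4 clones passed in both directions, and in 7 genes none passed. The same count was not made for genes outside the members, so that these numbers have no background. Cxcl12, Csf1 and Il18 were lower in S-1 cells on every clone and Il17ra was higher on both of its clones.

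**Figure D2:**
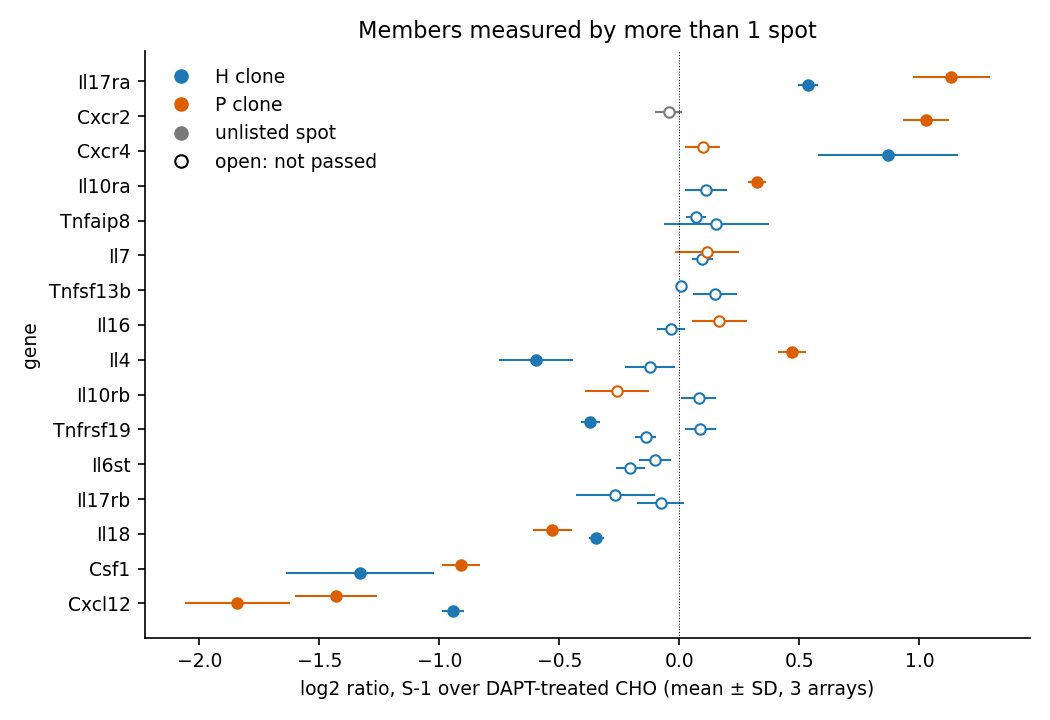
Mean log2 ratio ± SD (S-1 over DAPT-treated CHO, 3 arrays) of each spot of the 16 genes with more than 1 spot, coloured by clone collection, with filled points for spots past the threshold. The 3 spots of Cxcl12 lie between −1.84 and −0.94, both spots of Il17ra lie at 0.54 and above, and the 3 spots of Il4 lie on both sides of 0.

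Cxcl12, the chemokine that retains stem cells and leukocytes in tissues through the receptor Cxcr4, had on its P clones the lowest mean ratios of all members. Its first P clone had log2 ratios of −1.59, −2.00 and −1.93 on arrays 1, 2 and 3, a mean of −1.84 ± 0.22 (SD, adjusted p = 2.00e-04, limma). The second P clone had −1.51, −1.55 and −1.23, with a mean of −1.43 ± 0.17 (adjusted p = 2.47e-04). The H clone had −0.89, −0.98 and −0.95, with a mean of −0.94 ± 0.05 (adjusted p = 2.03e-04). The signal in DAPT-treated CHO cells was thus 3.58, 2.70 and 1.92 times that in S-1 cells by these clones, and no array came near 0 on any of them. Without array 2 the second P clone and the H clone missed the threshold at adjusted p = 0.0061 and 0.00683, while the first P clone passed at 0.00476. Without array 1 or array 3 all 3 clones passed, at adjusted p of 0.00143 or less.

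The receptors of Cxcl12 gave no single picture. Cxcr4 was higher in S-1 cells on its H clone, with log2 ratios of 0.53, 1.02 and 1.06 (mean 0.87 ± 0.29, adjusted p = 0.00376, limma). Its P clone gave 0.03, 0.17 and 0.09 (mean 0.10, adjusted p = 0.195) and did not pass. The H clone was lowest on array 1 and lay above every value of the P clone on each array. Without array 2 the H clone missed the threshold (log2 ratio 0.80, adjusted p = 0.0375). Ackr3, which also binds Cxcl12 and removes it from the surroundings, had a log2 ratio of 0.18 on its H clone and did not pass (adjusted p = 0.144).

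Csf1, the growth factor of macrophages, was lower in S-1 cells by both of its clones. The H clone had log2 ratios of −1.19, −1.12 and −1.68, with a mean of −1.33 ± 0.31 (SD, adjusted p = 0.0012, limma). The P clone had −0.90, −0.84 and −0.996, with a mean of −0.91 ± 0.08 (adjusted p = 3.07e-04). Both clones were lowest on array 3, the dye swap, and below 0 on every array. Without array 2 they missed the threshold at adjusted p = 0.0114 for the H clone and 0.00696 for the P clone, with log2 ratios of −1.43 and −0.95. Csf3r, the receptor of the granulocyte growth factor, stood at 0.02 (adjusted p = 0.837). The Csf1 receptor was not analysed here.

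Il18, a cytokine of the IL-1 family that induces interferon-γ, was lower by a smaller amount. Its P clone had log2 ratios of −0.62, −0.50 and −0.47 (mean −0.53 ± 0.08, adjusted p = 0.00156, limma). Its H clone had −0.38, −0.35 and −0.31 (mean −0.35 ± 0.03, adjusted p = 0.00359). All 6 values lay below 0, with the P clone below the H clone on every array. Both calls were lost without array 1 (adjusted p = 0.0106 and 0.0323) and without array 2 (0.0229 and 0.046). Ifng itself, interferon-γ, had a log2 ratio of 0.20 on a P clone and did not pass (adjusted p = 0.0201).

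Il17ra, the receptor chain that IL-17A and IL-17F share, was the 1 gene with several clones that was higher in S-1 cells on each. The P clone had log2 ratios of 0.95, 1.20 and 1.25 (mean 1.13 ± 0.16, adjusted p = 4.29e-04, limma) and the H clone had 0.51, 0.58 and 0.51 (mean 0.54 ± 0.04, adjusted p = 0.00104). The linear ratios were 2.19 and 1.45. Without array 2 neither clone passed (adjusted p = 0.00993 and 0.0204), and without array 1 the P clone passed at 7.10e-04 and the H clone missed at 0.00803. The ligands of the receptor did not pass: Il17a stood at 0.00 (adjusted p = 0.998) and Il17f at −0.03 (adjusted p = 0.731). Il17d, a further member of the ligand family, had log2 ratios of 0.37, 0.59 and 0.35 and missed the threshold among spots (mean 0.44, adjusted p = 0.0057). The same ratios of its 1 spot passed when tested among gene values (adjusted p = 0.00484). Il17rb, the chain that binds IL-25, stood at −0.08 and −0.27 on its H clones, and Il17rd, which is also known to restrain FGF signalling, at −0.14. None of these passed.

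Clones of the same gene did not always have the same sign. Il4, the cytokine that drives type 2 helper T cells, was higher on its P clone, at 0.43, 0.44 and 0.54 (mean 0.47 ± 0.06, adjusted p = 0.00175, limma), and lower on its second H clone, at −0.65, −0.72 and −0.43 (mean −0.60 ± 0.15, adjusted p = 0.00269). Its first H clone stood at −0.12 (adjusted p = 0.158), and the gene value was −0.08 (adjusted p = 0.244), so that no direction can be given for Il4. Both calls were lost without array 1 (adjusted p = 0.0115 and 0.0151) and without array 2 (0.0254 and 0.0302). Cxcr2, the receptor with which neutrophils follow Cxcl1 and Cxcl2, was higher on its P clone, at 0.92, 1.11 and 1.06 (mean 1.03 ± 0.10, adjusted p = 2.64e-04), and stood at −0.05 on an unlisted spot (adjusted p = 0.502). Il10ra, the ligand-binding chain of the IL-10 receptor, passed on its P clone, higher at 0.32 ± 0.04 (adjusted p = 0.00475), but not on its H clone, which gave 0.11 (adjusted p = 0.17). Its partner chain Il10rb stood at 0.08 on an H clone and −0.26 on a P clone, and Il10 at 0.04, and none of these passed. Of the 3 H clones of Tnfrsf19, a TNF receptor of skin and nervous tissue also called Troy, 1 was lower at −0.37 ± 0.04 (adjusted p = 0.00305) and the others stood at −0.14 and 0.09. Without array 2 none of the calls of this paragraph passed, with adjusted p of 0.00714 for Cxcr2, 0.0432 for Tnfrsf19 and 0.0585 for Il10ra. With each collection centred Il10ra also missed, at 0.00792. Without array 1 Cxcr2 passed at 0.00105, while Tnfrsf19 (0.0196) and Il10ra (0.0385) did not.

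**Figure D3:**
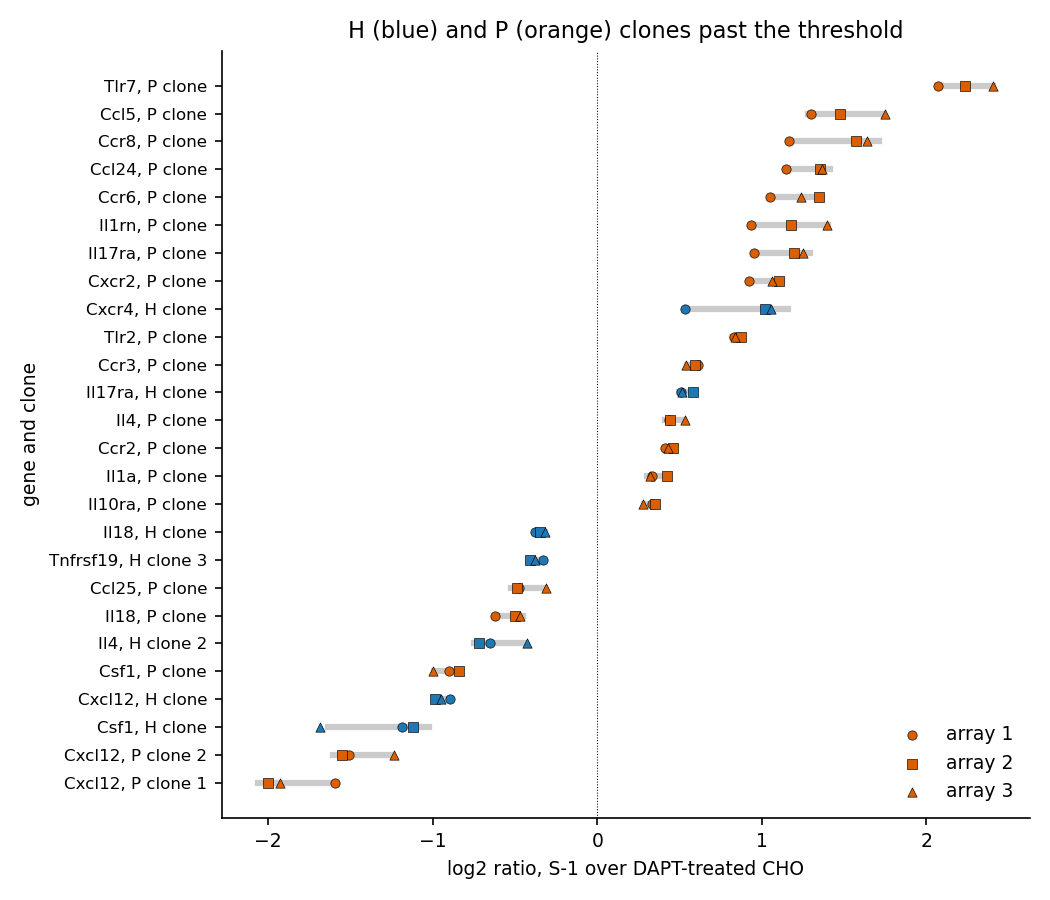
Log2 ratio (S-1 over DAPT-treated CHO) on each of the 3 arrays for the 26 H and P clones of members past the threshold, with grey bars for the mean ± SD. The 16 higher clones run between 0.32 for Il10ra and 2.24 for Tlr7. The 10 lower clones run between −1.84 for the first P clone of Cxcl12 and −0.35 for the H clone of Il18. No clone has arrays on both sides of 0, which the threshold nearly requires.

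Among the other chemokines on H and P clones, 2 were higher and 1 was lower in S-1 cells. All 3 were among 7 P clones of CC chemokines, of which 28.6% were higher and 14.3% lower. Of all P spots, 19.3% were higher and 12.8% lower. Ccl5, also called RANTES, which draws T cells and monocytes, had log2 ratios of 1.30, 1.47 and 1.75 (mean 1.51 ± 0.23, adjusted p = 3.94e-04, limma), a linear ratio of 2.84. Ccl24, an eotaxin that attracts eosinophils through Ccr3, had 1.14, 1.36 and 1.36 (mean 1.29 ± 0.12, adjusted p = 1.97e-04), a linear ratio of 2.44. Ccl25, the chemokine of thymus and small intestine that binds Ccr9, was lower, at −0.48, −0.49 and −0.31 (mean −0.43 ± 0.10, adjusted p = 0.00382). Each lay on the same side of 0 on every array, as did every member spot that passed. Without array 2 all 3 missed the threshold, with adjusted p of 0.00883 for Ccl5, 0.00593 for Ccl24 and 0.0454 for Ccl25. Without array 1 Ccl5 passed at 6.66e-04 and Ccl24 at 4.79e-04, while Ccl25 missed at 0.0262.

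The remaining chemokines on H and P clones did not pass and lay between −0.27 and 0.27. The interferon-induced Cxcl10 and Cxcl9, which share the receptor Cxcr3, stood at −0.27 (adjusted p = 0.00975) and 0.17 (adjusted p = 0.0519). Ccl7, a monocyte attractant, stood at −0.25 (adjusted p = 0.0126) and Ccl28, a chemokine of mucosal surfaces, at 0.27 (adjusted p = 0.0186). Cx3cl1, fractalkine, a membrane-bound chemokine and a known substrate of γ-secretase, had log2 ratios of 0.15, 0.43 and 0.14, with a mean of 0.24 (95% interval 0.05 to 0.43, adjusted p = 0.0551, limma). Ccl11, another eotaxin, stood at 0.03 and Ccl22, a ligand of Ccr4, at −0.05. The neutrophil attractants Cxcl5 and Cxcl1 stood at 0.23 and −0.08, Cxcl13, which guides B cells, at 0.21, and Ccl27a, a chemokine of skin, at −0.11.

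Chemokine receptors had 6 of 12 H and P spots higher in S-1 cells and 0 lower. All but the H clone of Cxcr4 were P clones, and 5 of the 11 receptor P clones were higher (45.5%), against 19.3% higher over all P spots. None of the 11 was lower, against 12.8% lower over all P spots. Ccr8, a receptor of type 2 helper and regulatory T cells, had log2 ratios of 1.17, 1.57 and 1.64 (mean 1.46 ± 0.26, adjusted p = 5.83e-04, limma), a linear ratio of 2.75. Ccr6, the receptor of Ccl20, had 1.05, 1.34 and 1.24 (mean 1.21 ± 0.15, adjusted p = 3.06e-04), a linear ratio of 2.32. Both were lowest on array 1 and above 1 on every array.

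Ccr3, the eosinophil receptor of Ccl24 and Ccl11, had log2 ratios of 0.61, 0.59 and 0.54 (mean 0.58 ± 0.04, adjusted p = 7.88e-04, limma). Ccr2, the monocyte receptor of Ccl2, had 0.41, 0.46 and 0.43 (mean 0.43 ± 0.02, adjusted p = 0.00171). These were smaller ratios, and the arrays of each receptor lay close together. Without array 2 none of the 4 receptors passed (adjusted p of 0.011 for Ccr8, 0.00636 for Ccr6, 0.0171 for Ccr3 and 0.0297 for Ccr2). Without array 1 Ccr8 passed at 2.93e-04 and Ccr6 at 6.83e-04, while Ccr3 (0.00708) and Ccr2 (0.0137) did not. The receptors that did not pass were Cx3cr1, the receptor of fractalkine, at 0.22, Ccr4 at 0.16, Ccr1, which binds Ccl5 and Ccl3, at 0.12, Ccr9, the receptor of Ccl25, at 0.00 and Cxcr5, the receptor of Cxcl13, at −0.15.

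**Figure D4:**
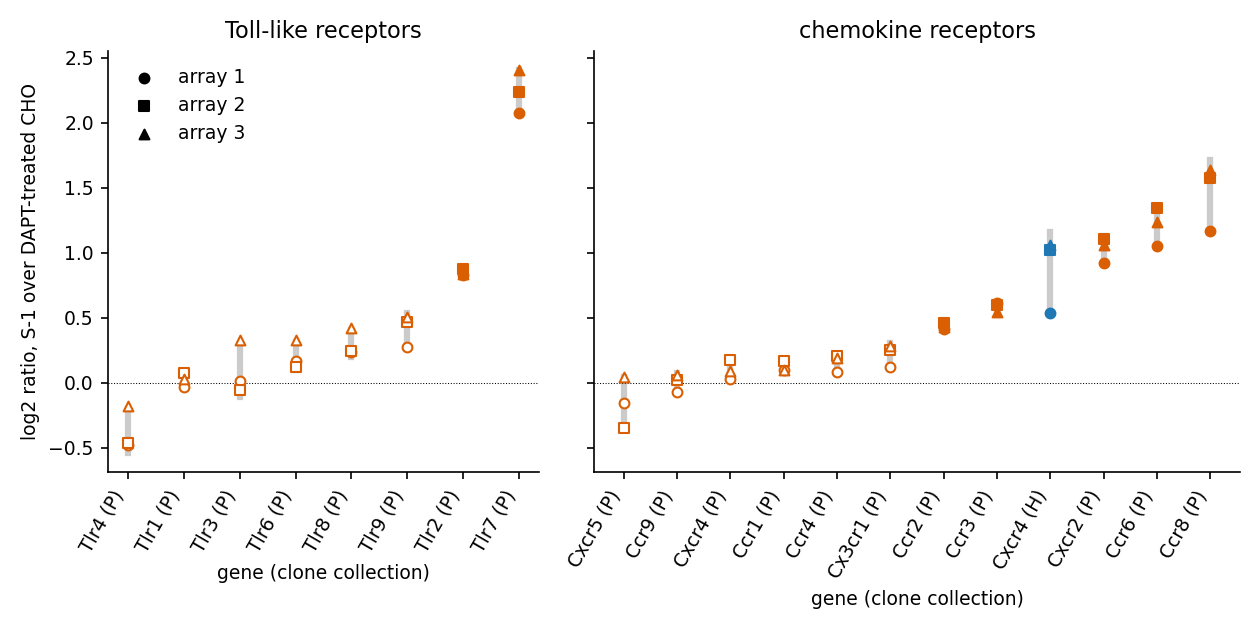
Log2 ratio (S-1 over DAPT-treated CHO) on each of the 3 arrays for the 8 Toll-like receptor spots and the 12 H (blue) and P (orange) spots of chemokine receptors, with filled points for spots past the threshold and grey bars for the mean ± SD. Tlr7 lies above 2 on every array and Tlr2 at a mean of 0.85, and 6 receptor spots pass on the right while none passes below 0.

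The 8 Toll-like receptors were all measured by P clones. Tlr7, the receptor of single-stranded RNA in endosomes, was the member with the highest ratio outside the unlisted spots. Its log2 ratios were 2.07, 2.24 and 2.40 (mean 2.24 ± 0.17, adjusted p = 1.17e-04, limma), so that the signal in S-1 cells was 4.71 times that in DAPT-treated CHO cells. It passed without array 1, 2 or 3, at adjusted p of 1.85e-04, 0.0043 and 1.36e-08. Tlr2, which senses bacterial lipoproteins in pairs with Tlr1 or Tlr6, had 0.83, 0.87 and 0.84 (mean 0.85 ± 0.02, adjusted p = 2.37e-04), a linear ratio of 1.80, and missed the threshold without array 2 (adjusted p = 0.00807). Its partners Tlr1 and Tlr6 stood at 0.02 (adjusted p = 0.745) and 0.20 (adjusted p = 0.0467).

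The other Toll-like receptors did not pass. Tlr4, the receptor of lipopolysaccharide, had log2 ratios of −0.48, −0.46 and −0.18 (mean −0.37, adjusted p = 0.0151, limma) and was the 1 Toll-like receptor with a mean below 0. Cd14, which hands lipopolysaccharide to Tlr4 and is not among the members, was higher on a P clone at 0.65 ± 0.10 (adjusted p = 0.00114). Tlr9, the receptor of unmethylated DNA, had 0.28, 0.46 and 0.51 (mean 0.41, adjusted p = 0.00565). The same ratios of its 1 spot passed when tested among gene values (adjusted p = 0.00473). Tlr8, in humans a sensor of single-stranded RNA like Tlr7, stood at 0.30 (adjusted p = 0.0121) and Tlr3, the receptor of double-stranded RNA, at 0.09 (adjusted p = 0.438).

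Of the IL-1 family on H and P clones, the natural antagonist was the most raised. Il1rn, which binds the IL-1 receptor and blocks it, had log2 ratios of 0.93, 1.18 and 1.39 (mean 1.17 ± 0.23, adjusted p = 8.81e-04, limma), a linear ratio of 2.25. Il1a, an agonist of the same receptor, had 0.33, 0.43 and 0.32 (mean 0.36 ± 0.06, adjusted p = 0.00406), a linear ratio of 1.28. Il1rl2, a receptor chain of IL-36, stood at 0.15 and Il1rapl2, a relative of the IL-1 receptor accessory proteins, at 0.01, and neither passed. Without array 2 both calls were lost, at adjusted p = 0.015 for Il1rn and 0.0497 for Il1a, and without array 1 Il1rn passed (0.00103) and Il1a did not (0.0261). With control spots kept in, the adjusted p was 0.00593 for Il1rn and 0.0108 for Il1a, and with each collection centred Il1a missed at 0.00577. Sigirr, an inhibitory receptor of the family, stood at 0.21 (adjusted p = 0.0381).

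The remaining interleukins on H and P clones did not pass as spots. Il15, the growth factor of natural killer and memory T cells, had the lowest of them, at −0.64, −0.84 and −0.39 (mean −0.62 ± 0.23, adjusted p = 0.00555, limma). The same ratios of its 1 spot passed when tested among gene values (adjusted p = 0.00493). The cytokines of helper T cells Il2, Il5 and Il13 stood at 0.12, 0.09 and 0.19 (adjusted p of 0.0944, 0.178 and 0.034). Il7, which sustains lymphocyte precursors, stood at 0.10 on its H clone and 0.11 on its P clone, and its receptor Il7r at 0.28 ± 0.02 (adjusted p = 0.00655). The 1 spot of Il7r passed when tested among gene values (adjusted p = 0.00493). Il12a, a subunit of IL-12, stood at −0.01, and Il16, which attracts T cells, stood at −0.04 and 0.17.

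Among interleukin receptors on H and P clones, 3 of 20 spots were higher (15.0%), those of Il17ra and Il10ra described above, and 0 were lower. Of all H spots 6.76% were higher and 8.52% lower, and of all P spots 19.3% and 12.8%. Il13ra1, which pairs with Il4ra to bind IL-4 and IL-13, had log2 ratios of 0.43, 0.34 and 0.22 (mean 0.33 ± 0.11, adjusted p = 0.00941, limma), and Il4ra stood at −0.06 (adjusted p = 0.334). Il6st, or gp130, the chain that transmits the signals of IL-6 and its relatives, stood at −0.20 and −0.10 on its H clones (adjusted p = 0.0253 and 0.166). The chains Il3ra, Il20rb, Il27ra and Il31ra lay between −0.11 and 0.10. None of these passed.

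Of 13 H and P spots of TNF ligands, receptors and TNF-induced proteins, 1 passed, the lower clone of Tnfrsf19 described above, and 12 did not. Over the array, 15.3% of all H spots and 32.1% of all P spots passed in either direction. Tnfrsf23, a decoy receptor of the death ligand TRAIL in mice, had log2 ratios of 0.38, 0.38 and 0.25 (mean 0.34 ± 0.08, adjusted p = 0.00626, limma). The same ratios of its 1 spot passed when tested among gene values, with an adjusted p that lay under 0.005 by less than its rounding. Tnfrsf1b, the receptor of TNF on leukocytes, stood at −0.28 (adjusted p = 0.0122), Tnfrsf12a, the receptor of TWEAK, at −0.22, and the T cell costimulators Tnfrsf9 and Tnfrsf18 at −0.14 and 0.08. Tnfsf13b, the B cell survival factor BAFF, stood at 0.15 and 0.01 on its H clones. The TNF-induced Tnfaip2 stood at −0.31, with −0.61 on array 3 and −0.19 and −0.14 on arrays 1 and 2, and Tnfaip8 at 0.15 and 0.07.

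Tnf, Il1b and Il6, cytokines of acute inflammation, were measured by unlisted spots alone, as were 10 other members. Of the 14 unlisted member spots, 11 were higher in S-1 cells (78.6%), near the 78.8% of all unlisted spots. Tnf had log2 ratios of 2.40, 2.59 and 2.96 (mean 2.65 ± 0.29, adjusted p = 1.46e-04, limma), a linear ratio of 6.28. Il1b, the secreted IL-1 of macrophages, had 2.27, 2.53 and 2.93 (mean 2.58 ± 0.33, adjusted p = 2.12e-04). Il6, a main inducer of the acute phase, had 1.66, 1.82 and 2.03 (mean 1.84 ± 0.19, adjusted p = 1.52e-04). All 3 genes had their lowest ratio on array 1 and their highest on array 3, where the dyes were swapped.

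The chemokines of this group had like ratios. Cxcl2, a neutrophil attractant, had a mean log2 ratio of 2.64 ± 0.34, and Ccl3 and Ccl4, which attract monocytes and T cells, had 2.57 ± 0.33 and 2.45 ± 0.19. Ccl20, the ligand of Ccr6, had 2.34, 2.62 and 2.69 (mean 2.55 ± 0.19, adjusted p = 1.17e-04, limma). Ccl9, a macrophage inflammatory protein of mice, had 2.22, 2.50 and 1.61 (mean 2.11 ± 0.46, adjusted p = 9.03e-04), with the lowest value on array 3. Ccl2, the monocyte attractant that binds Ccr2, did not pass, and its arrays were wide apart at 0.41, 0.74 and 0.10 (mean 0.42, adjusted p = 0.0491).

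The receptor chains among the unlisted spots differed more. Il1rap, the accessory chain of the IL-1 receptor, had 2.38, 2.45 and 2.83 (mean 2.55 ± 0.24, adjusted p = 1.25e-04, limma). Il1r1, the ligand-binding chain and a known substrate of γ-secretase, had 1.96, 1.98 and 2.35 (mean 2.10 ± 0.22, adjusted p = 1.52e-04). Tnfrsf1a, the main receptor of TNF and also a substrate, had 1.52, 1.42 and 1.60 (mean 1.51 ± 0.09, adjusted p = 1.23e-04). Il6ra, the ligand-binding chain of the IL-6 receptor and a substrate as well, stood at −0.02, 0.01 and 0.06 (mean 0.02, 95% interval −0.10 to 0.13, adjusted p = 0.818). Without array 2 Ccl3, Cxcl2, Il1b and Ccl9 missed the threshold, at adjusted p of 0.00536, 0.00526, 0.00578 and 0.00889, and the other 7 passed.

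**Figure D5:**
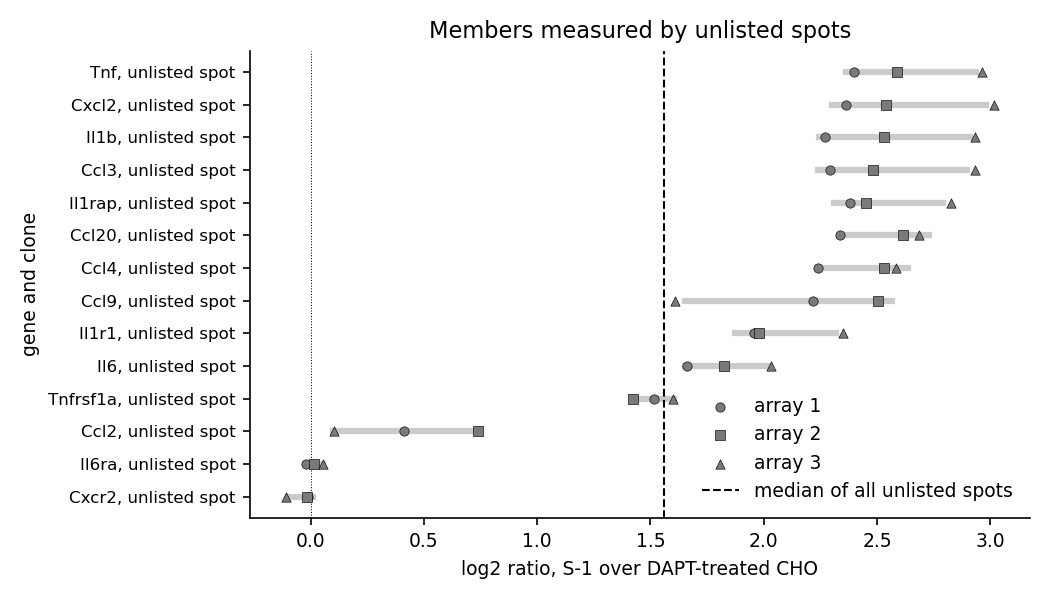
Log2 ratio (S-1 over DAPT-treated CHO) on each of the 3 arrays for the 14 members on unlisted spots, with grey bars for the mean ± SD and a dashed line at 1.56, the median of all 480 unlisted spots. Of the members, 10 have a mean above that line, Tnfrsf1a lies just below it at 1.51, and Ccl2, Il6ra and Cxcr2 lie at 0.42 or less.

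These ratios stand among spots that were nearly all raised, since 94.4% of all unlisted spots had a mean above 0 and the middle 50% of them lay between 0.67 and 2.43. Relative to the median of their collection on each array, Ccl2 and Il6ra were below it, at −1.13 (adjusted p = 0.00217, limma) and −1.54 (adjusted p = 1.35e-04), as was the unlisted spot of Cxcr2 at −1.60 (adjusted p = 1.84e-04), and Tnfrsf1a did not differ from it by the test, at −0.041 (adjusted p = 0.649). Il6 and Ccl9 also lost their calls on this scale, at 0.29 (adjusted p = 0.0163) and 0.55 (adjusted p = 0.0629), and the other 8 raised members stayed higher. Other clones of such genes were mostly not raised. Over the whole array, 231 genes had both an unlisted spot and an H or P spot, with median log2 ratios of 1.04 on the unlisted spots and −0.03 on the others. Of the 167 genes that were higher on the unlisted spot, 20 were higher on an H or P spot, 33 were lower and 114 neither. Among the members and the genes of the lists described below, 16 had both kinds, and 11 were higher on the unlisted spot. Of these 11, 0 were higher on an H or P spot, 3 were lower and 8 neither. Cxcr2 was the 1 member with both kinds, and there the P clone passed and the unlisted spot did not. The part of the unlisted positions in the ratios of Tnf, Il1b, Il6 and the other 8 members was not tested by a second clone.

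The genes that carry the signals of these receptors were described from a list of 66 NF-κB, adaptor, JAK, STAT and SOCS genes, of which 42 were measured. As gene values 15 were higher in S-1 cells, 3 were lower and 24 did not pass, and the median was 0.09, against 12.4% higher, 10.3% lower and a median of 0.01 over all genes. Of the 15 higher genes, 14 had an unlisted spot and 8 had no other. The largest were Stat4 at 2.65, the NF-κB subunit Rel at 2.60, the SOCS-family gene Socs5 at 2.25 and the cytokine inhibitor Socs1 at 1.76, each on an unlisted spot alone. With the unlisted spots left out, 1 of 33 genes of the list was higher, Cd14 (3.03%, against 9.26% of all genes), and 6 were lower (18.2%, against 10.6%).

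Tested on H clones alone, 0 of 32 genes of the list were higher, against 599 of 7489 genes, and 7 were lower (21.9%, against 10.7% of all genes). Stat3, which carries the signal of IL-6, stood at −1.16 ± 0.08 and −0.67 ± 0.12 (adjusted p = 1.55e-04 and 0.00123, limma) on H clones and at 0.93 ± 0.10 (adjusted p = 3.92e-04) on an unlisted spot. Socs3, the inhibitor that STAT3 induces, stood at −1.05 (adjusted p = 7.04e-04) on its H clone and 0.68 (adjusted p = 0.00101) on its unlisted spot. Stat6, which carries the signals of IL-4 and IL-13, stood at −0.59 (adjusted p = 0.00382) on its H clone and 2.08 (adjusted p = 2.47e-04) on its unlisted spot. Each of these genes thus passed in both directions. Jak2, the kinase of many cytokine receptors, was lower on 3 H clones, at −0.95, −0.85 and −0.55, and stood at 0.06 on an unlisted spot. The TAK1-binding protein Tab2 was lower at −0.53 (adjusted p = 0.00151), the NF-κB modulator Nfkbiz at −0.48 (adjusted p = 0.00134), and the IL-1 and Toll-like receptor inhibitor Tollip at −0.39 on its H clone (adjusted p = 0.00421), with its P clone at −0.07.

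Relatives of the members under other names were taken from a list of 48, of which 17 were measured. As gene values 3 were higher, 0 lower and 14 did not pass, where 12.4% of all genes were higher and 10.3% lower. With the unlisted spots left out, 1 gene of this list was higher and 0 were lower, where 9.26% of all genes were higher and 10.6% lower. Lifr, the receptor of leukaemia inhibitory factor, stood at 2.48 on an unlisted spot alone. Fas, the death receptor, had a gene value of 0.92, with 2.18 on an unlisted spot, 0.51 on an N clone (adjusted p = 0.0529, limma) and 0.07 on a P clone (adjusted p = 0.4). Cd40lg, the TNF-family ligand of helper T cells, was higher on a P clone at 0.44 (adjusted p = 0.00254). Of 22 markers of immune cells, 2 were measured, Lyz2 at −0.16 and Cd4 at −0.09, and neither passed. With 2 markers and no intensities, immune identity could not be checked, and a part of other cells in the ratios was not tested.

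Calls near the threshold were Ccl25 (adjusted p = 0.00382), Il1a (0.00406) and Il10ra (0.00475) just inside it and Il15 (0.00555), Tlr9 (0.00565) and Il17d (0.0057) just outside, all by limma over spots. In all, 21 member spots, the last 3 among them, lay between 0.005 and 0.05, with 13 means above 0 and 8 below.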

How the data were processed

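Total RNA of each culture was amplified, labelled with Cy3 or Cy5 and hybridised to mouse cDNA clones. The authors read the scans with GenePix Pro, did not subtract background, normalised within each array by print-tip lowess, and deposited log2 ratios, 1 for each spot on each array, with 0 missing values. Hamster RNA was thus measured by mouse clones. No further scaling was done here. At 23 positions without a gene name in any block, 736 spots followed the dye (r = −0.960 for arrays 1 and 3), and these were left out as likely controls. Each spot was tested against 0 with a single coefficient in limma 3.58.1 (R 4.3.3, 3.05 prior degrees of freedom), with Benjamini-Hochberg adjustment over 16928 spots and the threshold of 0.005 that the study used. Gene values were means of spots of the same symbol. Collections were assigned by position, and 2430 of 2431 clones paired with the study's lists by fold (tolerance 1e-05) had the expected letter. The listed folds are larger in size, by a constant factor, than the linear ratios given here, and pairing used the listed scale. Other choices tried are given in the closing section. Named genes were those with a passing spot, their ligand or receptor partners, substrates of γ-secretase, genes near the threshold and leading genes of the lists; other members are given by value. Members and lists were chosen with earlier results of these data known. Depth is unknown without intensities, and the number of arrays limits the precision. Python 3.11.15, NumPy 2.4.6, pandas 2.3.3 and Matplotlib 3.10.9 made tables and figures. The fit was tested on simulated data.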

Additional observations from a re-analysis of the deposited data

How the results depend on the processing

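Of 27 higher and 10 lower member spots, 6 and 1 passed under every alternative run for them. Of the 6, only Tlr7 lay on a P clone. Ccl20, Ccl4, Tnf, Il1r1 and Il1rap lay on unlisted spots, of which 78.8% were higher over the array. Unlisted spots could not be run where those spots were left out or H clones were taken alone. Leaving out an array gave 8 to 34 higher and 1 to 17 lower member spots, 2 to 10 lower member genes, 263 to 3177 higher and 100 to 3088 lower spots in all, 0 to 5 lower pathway genes and 1 to 4 higher family genes. The fewest calls came without array 2, and the most without array 3, where all S-1 RNA was in Cy3. With control spots included, 20 member spots were higher and 4 lower, and over all spots 679 were higher and 507 lower. With the dye as a coefficient, 41 member spots were higher and 19 lower, 11 member genes and 9 pathway genes were lower, and over all spots 3495 were higher and 3340 lower. With each collection centred, 8 member genes were lower, 4 pathway genes were higher and 11 lower, and 2 family genes were lower. Then the log2 ratios of Ccl2, Tnfrsf1a and Il6ra were −1.13, −0.041 and −1.54. Without unlisted spots, 16 member spots, 13 member genes, 1 pathway gene and 1 family gene were higher, and 6 pathway genes were lower. With H clones alone, 2 member spots were higher and 5 lower, 2 member genes were higher and 3 lower, 0 pathway genes were higher and 7 lower, 0 family genes were higher, and 1050 spots in all were higher and 1318 lower. With array weights, 16 member spots, 10 member genes and 5 pathway genes were lower, 5 family genes were higher, and over all spots 2774 were higher and 2619 lower. At a threshold of 0.05, 42 member genes were higher and 11 lower, 18 member spots and 6 pathway genes were lower, 7 family genes were higher and 1 lower, and over all spots 3545 were higher and 3188 lower. Quantile normalisation, a robust prior, centring of arrays and medians of spots kept every such count within 1.5 times its value. The cause of these changes was not tested, apart from the fewer spots where collections, and fewer arrays per spot where arrays, were left out. Each log2 ratio already pairs the 2 cultures of an array, so that every test against 0 was a paired one and no further pairing was possible. Intensities, and with them signal over background, were not analysed here.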

Other observations

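Spots with several names were left out of the members. Of these, 4 carried a member's name, and none passed. Those annotated to Hnrnpa1 and Ccr9 together had log2 ratios (S-1 over DAPT-treated CHO) of 0.14, 0.11 and 0.28 (adjusted p = 0.204, 0.35 and 0.00989, limma), and the spot of Tnfsf12 and Tnfsf13 stood at −0.10 (adjusted p = 0.159).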
